A study of Mus musculus with 23 samples.

Results

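The genes described here are 10 markers known to rise in blood stem cells of old mice, namely Clu, Plscr2, Runx1t1, Fhl1, Sult1a1, Aldh1a1, Nupr1, Cavin2, Alcam and Jam2. Each was found by its symbol, and all 10 were present among the 24454 genes of the count table. They were read across 23 RNA-seq libraries of mouse marrow cells in 8 groups, which were WT or SclCre;V617F cells of 4 sorted populations. After tamoxifen, Cre driven by Scl sequences turns on JAK2-V617F, a mutant kinase of myeloproliferative disease, and Scl is known as a regulator of blood stem and progenitor cells. All mice were C57BL/6 and all, WT included, had tamoxifen on 5 days and were sampled 12 weeks later. The controls are labelled only as wild type, so Cre and the mutation differ together between genotypes. The labels used here give no age, so no old animals were compared with young ones.

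Long-term stem cells (LT-HSC) were sorted as Kit-positive, Sca-1-positive, CD150-positive cells without CD48 or lineage markers. CD41-negative and CD41-positive HSC are the fractions of that gate without and with CD41, the integrin subunit of the platelet lineage. Megakaryocyte progenitors (MkP) were Kit-positive, CD150-positive, CD41-positive cells without Sca-1 or lineage markers. The SMART-Seq v2 kit served for LT-HSC and MkP and v4 for the CD41 fractions, so both sets were normalised apart and never compared with each other. Each group had 3 libraries except WT CD41-positive HSC, which had 2. Library numbers are those of the labels, and V617F number 2 of the CD41 fractions was male while the other CD41-fraction libraries were female. In LT-HSC the V617F libraries were all male and the WT libraries all female, so sex and genotype cannot be told apart there. MkP libraries of both genotypes were female, so in V617F the sex of the mice also differed between MkP and LT-HSC. Nothing in the labels says that libraries of a group came from separate mice, and p-values measure the spread between libraries only.

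Ageing changes the stem cell pool of the mouse marrow. Stem cells of old mice are known to be more numerous, to repopulate less well per cell and to lean towards platelet and myeloid output, and a set of transcripts rises with this change in many studies. The 10 genes have no single pathway in common. Clu encodes the secreted chaperone clusterin, Alcam and Jam2 encode adhesion molecules of the cell surface, and Plscr2 encodes a membrane protein of the phospholipid scramblase family. Cavin2 encodes a coat protein of caveolae and Fhl1 a LIM-domain scaffold of the cytoskeleton and nucleus. Aldh1a1 encodes an enzyme that makes retinoic acid and Sult1a1 one that sulfates phenols. Runx1t1 encodes a nuclear corepressor, and Nupr1 a small nuclear protein known to rise under stress.

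Libraries held between 17.6 and 49.2 M counts (median 22.2 M). Fewer genes had counts in WT than in V617F libraries of the v2 set, 13365 ± 466 against 15547 ± 217 in LT-HSC and 11995 ± 491 against 14953 ± 281 in MkP (SD, n = 3 each). The summed level of 13 granulocyte markers was also higher in WT there, 4087 to 8165 CPM against 791 to 1604 in LT-HSC, and 8567 to 12494 against 1211 to 2746 in MkP, and none of these markers was at 0. Here CPM are counts per M of the scaled library total. WT LT-HSC 30 stood apart with 6913 CPM of erythroid markers and 754 of T and NK markers, against at most 3386 and 117 in the other LT-HSC libraries, and with 1953 CPM over 12 stem cell markers against at least 2597. Of the T and NK list, Cd3e, Cd3g, Gzma and Gzmb were at 0 and Cd3d under 1 CPM in every WT LT-HSC library. That sum therefore rests on the few other genes of the list, among them Nkg7, and does not show T or NK cells. WT CD41-negative 1 held 3995 CPM of erythroid and 7969 of stem cell markers, against at most 2504 and 5190 in the other CD41-negative libraries. Endothelial and stromal markers, of interest because Clu, Jam2 and Alcam are also made by such cells, summed to between 176 and 368 CPM, with Cdh5 and Col1a1 under 1 CPM in every library. In each group other genes of this list reached 1 CPM in at least 1 library.

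By the reference annotation (RefSeq, GRCm38.p6, the assembly of the mm10 build used by the submitters), the members lie on 8 chromosomes. Clu spans chr14:65968483-65981548, Plscr2 chr9:92275602-92297752, Runx1t1 chr4:13742628-13895056 and Aldh1a1 chr19:20492583-20643463, all on the plus strand. Cavin2 spans chr1:51289126-51302960 and Fhl1 chrX:56731209-56793346, also on the plus strand. Alcam (chr16:52248996-52453081, minus strand) and Jam2 (chr16:84774123-84826380, plus strand) share a chromosome. Nupr1 (chr7:126623246-126625470) and Sult1a1 (chr7:126672865-126690443) lie 47.4 kb apart on the minus strand with 1 gene between them. The Sult1a1 gene model also spans Slx1b, a nuclease subunit gene of the same strand, and how shared reads were assigned is not given in the sources used here.

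RefSeq promoter entries matched 6 of the 10 members, with 8 entries. The 250 bases before the start of each entry are shown for Cavin2, Fhl1 and Sult1a1. These are the members with an entry that changed in a comparison of genotypes, and Fhl1 has 2 entries. The windows are chr1:51288876-51289125 (plus strand) for Cavin2, chrX:56779433-56779682 and chrX:56786277-56786526 (plus strand) for Fhl1, and chr7:126676419-126676668 (minus strand) for Sult1a1. Only the Cavin2 window lies directly before the gene span given above. Those of Fhl1 and Sult1a1 lie inside the spans, so they precede internal starts and not the outer end of the gene model. Capitals mark matches to the motifs searched.
Cavin2: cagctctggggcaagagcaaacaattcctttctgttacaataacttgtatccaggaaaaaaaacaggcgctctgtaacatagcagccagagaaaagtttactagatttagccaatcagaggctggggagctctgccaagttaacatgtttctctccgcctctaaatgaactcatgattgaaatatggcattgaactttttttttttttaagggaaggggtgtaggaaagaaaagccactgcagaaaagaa
Fhl1, start 1: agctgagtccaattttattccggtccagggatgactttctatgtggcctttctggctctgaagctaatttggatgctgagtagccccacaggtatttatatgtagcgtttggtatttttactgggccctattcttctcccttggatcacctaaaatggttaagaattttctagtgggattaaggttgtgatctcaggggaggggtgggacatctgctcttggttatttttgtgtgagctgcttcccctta
Fhl1, start 2: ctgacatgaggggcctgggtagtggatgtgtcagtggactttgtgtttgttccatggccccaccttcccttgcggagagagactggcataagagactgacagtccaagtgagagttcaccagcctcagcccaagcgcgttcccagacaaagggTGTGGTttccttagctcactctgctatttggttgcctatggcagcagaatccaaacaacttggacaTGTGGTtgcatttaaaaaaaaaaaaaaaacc
Sult1a1: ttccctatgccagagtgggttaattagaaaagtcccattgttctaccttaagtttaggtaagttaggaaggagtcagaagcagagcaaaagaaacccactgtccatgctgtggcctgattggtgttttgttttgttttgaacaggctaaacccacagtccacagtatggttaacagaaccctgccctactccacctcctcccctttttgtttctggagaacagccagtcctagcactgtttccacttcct
The 3 motifs searched on both strands, none of which contains another, were TTCNNNGAA, bound by STAT factors that act downstream of JAK2, AGATAA, bound by GATA factors, and TGTGGT, bound by RUNX factors. The 4 windows printed held no TTCNNNGAA and no AGATAA, and the second Fhl1 window held TGTGGT at 91 and at 25 bases before the start. Of the windows not printed, that of Nupr1 held TTCNNNGAA at 119 bases before the start. The second Aldh1a1 window held AGATAA at 26 bases, and the first Aldh1a1 window and that of Alcam held none of the 3 motifs. Over 32851 mouse promoters of the same length, 7.02% held TTCNNNGAA, 9.99% AGATAA and 14% TGTGGT. A match is a description of the letters, not a site in use.

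Levels of different genes were compared per length, as reads per kb per M (RPKM). In WT CD41-negative HSC, Aldh1a1 was the highest of the 10 at 86.5 ± 11.7 RPKM (SD, n = 3). Nupr1 at 49.8 ± 8.23 and Sult1a1 at 46.2 ± 10.2 did not differ beyond their spread. Fhl1 at 19.9 ± 3.64, Cavin2 at 16.7 ± 6.26 and Plscr2 at 13.4 ± 3.71 followed as close neighbours, then Alcam and Clu at 9.29 ± 1.28 and 8.55 ± 1.65, Jam2 at 4.55 ± 1.35 and Runx1t1 at 1.86 ± 0.139. In V617F CD41-negative HSC Plscr2 was the third at 40.5 ± 4.28 RPKM and Sult1a1 the fourth at 20.6 ± 7.01. In MkP the order was led by Cavin2, at 139.6 ± 42.1 RPKM in WT and 141 ± 12.8 in V617F, and Aldh1a1 and Nupr1 lay within their spread of each other in both genotypes. Nupr1 led in LT-HSC of both genotypes, but at 263 ± 283 RPKM in WT its spread exceeded its mean. Runx1t1 was the lowest of the 10 in every group except WT MkP, where Sult1a1 had no counts.

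**Figure D1:**
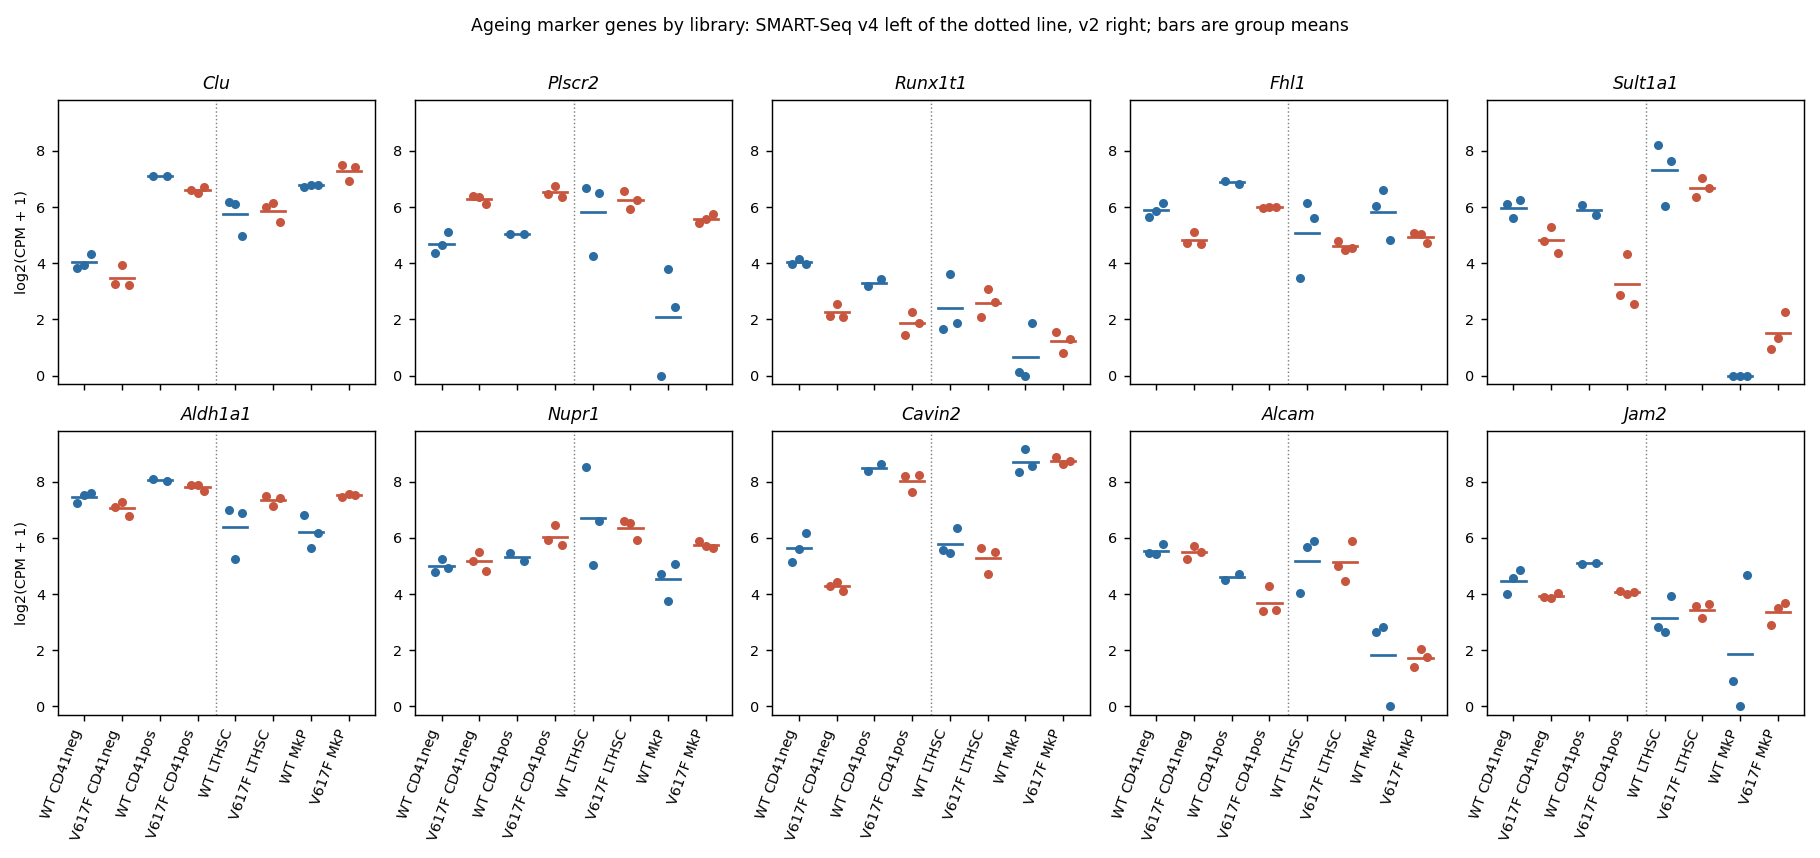
Level of each of the 10 genes in every library, as log2(CPM + 1) on the vertical axis, by group on the horizontal axis; each point is 1 library, horizontal bars are group means of the plotted values, and the v4 (left of the dotted line) and v2 sets are normalised apart. Plscr2 lies higher and Runx1t1 and Fhl1 lower in V617F than in WT in both CD41 fractions, and Cavin2 is high in CD41-positive HSC and MkP.

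In CD41-negative HSC the mutation went with more Plscr2 and with less Runx1t1, Fhl1 and Cavin2. Plscr2 was 3.02-fold higher in V617F, while Runx1t1 was 4.06-fold, Cavin2 2.78-fold and Fhl1 2.12-fold lower. These 4 of the 10 members passed an adjusted p of 0.05, 1 higher and 3 lower, where 13.4% of the 14467 genes tested passed, 5.48% higher and 7.94% lower. The members were chosen with earlier results of these data known, so such shares, here and below, are descriptions and no test of the set. The difference was negative for 8 of 10 members, and the median log2 fold change was -0.60 against -0.01 over all genes tested. Markers of other cells moved as well: 8 of 13 erythroid markers were lower in V617F (summed level 1855 to 3995 CPM in WT and 1755 to 1930 in V617F), as were 6 of 10 tested monocyte and macrophage markers (27.2 to 30.6 and 23.8 to 28.8 CPM), of which 1 was higher and Adgre1 was at 0 in V617F. Stem cell markers summed to 5014 to 7969 CPM in WT and 4134 to 4538 in V617F, with 1 of 12 passing, lower, and 10 of 12 negative. Of the 11 endothelial and stromal markers tested 1 was lower. Of 13 granulocyte markers 0 passed, with 10 negative and a median log2 fold change of -1.46 (summed level 301 to 765 CPM in WT and 365 to 398 in V617F). The part of these markers in the members' differences was not tested. The libraries of the 2 genotypes did not overlap for 5 members, 1 higher and 4 lower, where 30.3% of genes tested had such groups, 16% higher and 14.3% lower. These are bulk libraries, in which fewer cells of a type and less RNA per cell cannot be told apart.

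Among the surface and secreted products, Plscr2 had 19.4, 23.9 and 33.2 CPM in WT libraries 1, 3 and 4 and 82.1, 81.3 and 67.6 in V617F libraries 1, 2 and 3. The lowest V617F library was above the highest WT library, and the log2 fold change was 1.59 ± 0.18 (SE; adjusted p = 8.02e-04 by edgeR's quasi-likelihood test). The SE here and below was derived from the F statistic of that test. Jam2 had 15, 22.9 and 27.8 CPM in WT and 13.7, 13.6 and 15.5 in V617F, with WT library 1 inside the V617F range, and did not pass (log2 -0.62 ± 0.19, adjusted p = 0.0511). Clu had 13.3, 14.3 and 18.9 CPM against 8.49, 14.3 and 8.40, with V617F library 2 among the WT values (log2 -0.58 ± 0.20, adjusted p = 0.064). Alcam did not differ beyond its spread, at 46.1 ± 6.33 CPM in WT and 44.6 ± 7.11 in V617F (adjusted p = 0.889).

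Of the scaffold genes, Fhl1 had 49.0, 57.5 and 70.4 CPM in WT and 25.2, 33.6 and 24.7 in V617F (log2 -1.09 ± 0.15, adjusted p = 0.00301). Cavin2 had 34.0, 47.3 and 71.7 CPM in WT and 18.4, 20.6 and 16.1 in V617F (log2 -1.47 ± 0.25, adjusted p = 0.0065). Neither gene's groups overlapped, and for both the highest WT value was that of library 4. Cavin2 is also made by megakaryocytes and platelets. The summed level of 14 megakaryocyte and platelet markers moved the same way, 927 to 961 CPM in WT and 689 to 748 in V617F, with Gp6 at 0 in both groups; its part in the Cavin2 result was not tested.

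Of the nuclear products, Runx1t1 had 14.6, 16.7 and 14.9 CPM in WT and 3.33, 4.86 and 3.25 in V617F, so that every V617F library lay below every WT library (log2 -2.02 ± 0.26, adjusted p = 0.00173). Nupr1 overlapped between genotypes, at 31.2 ± 5.15 and 35.7 ± 8.31 CPM (adjusted p = 0.514). For the enzymes, Sult1a1 had 67.4, 47.8 and 74.8 CPM in WT and 26.4, 38.5 and 19.6 in V617F. Its groups did not overlap, but the change of -1.17 ± 0.40 on the log2 scale missed the threshold (adjusted p = 0.0657). It passed in 6 of 21 alternatives, which were limma-voom, no filter on low counts, the replicate block, sex as a covariate, and omission of both male libraries or of V617F CD41-positive library 2. The V617F library nearest to WT was number 2, the male one, but without that library alone Sult1a1 did not pass. Aldh1a1 did not pass, at 176 ± 23.8 CPM in WT and 134 ± 23.3 in V617F (log2 -0.39 ± 0.14, adjusted p = 0.0765). Slx1b, the neighbour inside the Sult1a1 model, fell by 1.20 on the log2 scale in this comparison (adjusted p = 0.0192), from 57.2 ± 24.7 to 24.8 ± 1.77 CPM.

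The calls of Plscr2, Runx1t1, Fhl1 and Cavin2 in CD41-negative HSC held in 21 of 21 alternatives each. Without WT libraries 1 and 3 together the same 4 genes and Jam2 passed, but this leaves WT library 4 alone, the highest of its group for Plscr2, Fhl1, Cavin2 and Jam2, and assumes that it varies like the other groups.

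**Figure D2:**
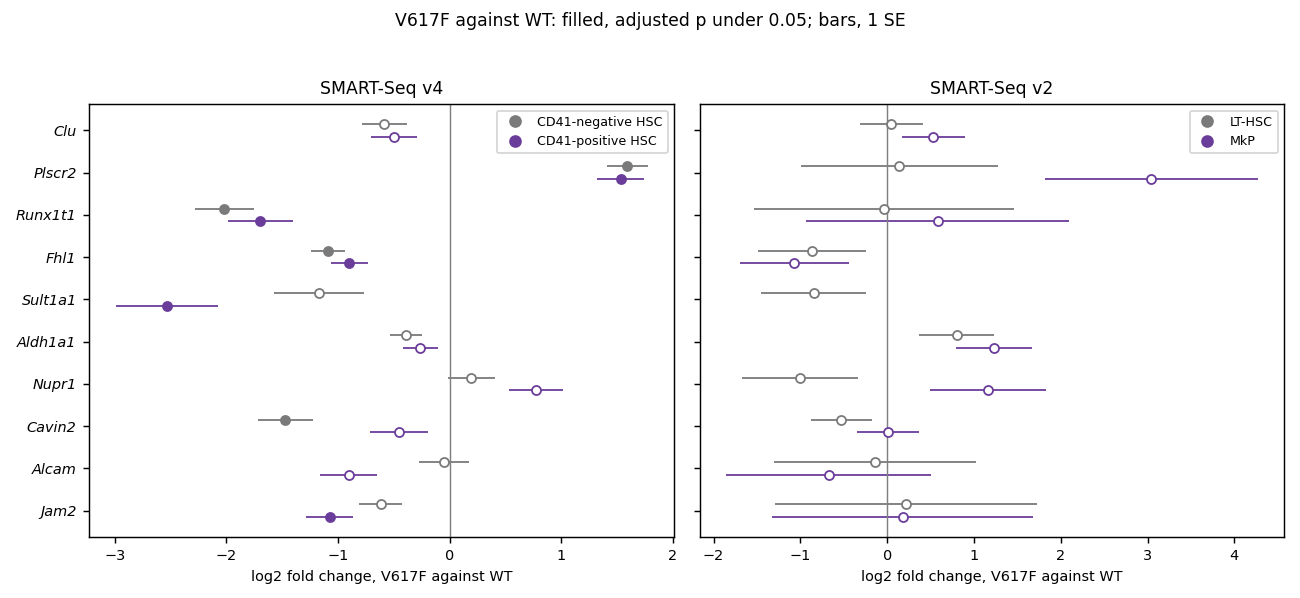
Log2 fold change, V617F over WT, of the 10 genes on the horizontal axis in CD41-negative and CD41-positive HSC (left) and in LT-HSC and MkP (right), as points with SE bars; filled points passed an adjusted p of 0.05. Sult1a1 in MkP is not drawn because the WT group has no counts. Plscr2 stands at 1.59 and 1.53 in the CD41 fractions and Runx1t1 at -2.02 and -1.70, while no LT-HSC point is filled.

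In CD41-positive HSC, Plscr2 was again higher in V617F, 2.90-fold, and Sult1a1, Runx1t1, Jam2 and Fhl1 were lower, by 5.79-fold, 3.24-fold, 2.10-fold and 1.87-fold. These 5 of 10 members passed, 1 higher and 4 lower, where 1.16% of the genes tested passed, 0.221% higher and 0.94% lower. The difference was negative for 8 of 10, with a median log2 fold change of -0.70 against 0.03 over all genes tested. Of other cells' markers, 5 of 13 erythroid (summed level 2485 to 2591 CPM in WT and 2334 to 2509 in V617F), 3 of 11 tested endothelial and stromal (282 to 308 and 242 to 264) and 1 of 10 tested monocyte and macrophage markers (13.8 to 15 and 9.14 to 12.7) were lower and none higher. Granulocyte markers went mostly up: 11 of 13 were positive with a median log2 fold change of 2.29, though 1 passed, lower, and 0 passed higher. They summed to 165 to 190 CPM in WT and 141 to 197 in V617F, and 6 of them were under 1 CPM in both WT libraries. Stem cell markers summed to 3629 to 3647 CPM in WT and 2716 to 3054 in V617F, with 10 of 12 negative and none passing, and the part of these markers in the members' differences was not tested. Every member had groups that did not overlap, 8 lower and 2 higher in V617F, where 41.7% of genes tested had such groups, 17.8% lower and 23.9% higher.

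Plscr2 had 31.6 and 31.5 CPM in WT libraries 3 and 4 and 87.2, 107 and 80.7 in V617F libraries 1, 2 and 3 (log2 1.53 ± 0.21, adjusted p = 0.00337). Jam2 had 33.0 and 33.3 CPM against 16.1, 15.2 and 16.0 (log2 -1.07 ± 0.21, adjusted p = 0.0293). Fhl1 had 121 and 112 CPM against 61.1, 62.9 and 63.7 (log2 -0.90 ± 0.17, adjusted p = 0.0226). For all 3 the groups did not overlap. The Jam2 call was kept in 14 of 21 alternatives and the Fhl1 call in 15 of 21; both were lost with the replicate block and without any 1 of the CD41-positive libraries, and Jam2 also without both male libraries.

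Runx1t1 had 8.07 and 9.78 CPM in WT and 1.71, 3.84 and 2.67 in V617F (log2 -1.70 ± 0.29, adjusted p = 0.0158). Sult1a1 had 65.9 and 51.7 CPM in WT and 6.32, 19.2 and 4.83 in V617F (log2 -2.53 ± 0.46, adjusted p = 0.0208). In both genes V617F library 2 was the highest of its group, and it was still below WT. Slx1b did not move with Sult1a1 here, with a log2 fold change of 0.12 ± 0.29 (adjusted p = 0.918).

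The other 5 members did not pass. Alcam had 21.8 and 25.2 CPM in WT and 9.51, 18.3 and 9.75 in V617F (log2 -0.91 ± 0.26, adjusted p = 0.139), and it passed in 5 of 21 alternatives. Nupr1 had 42.6 and 35.2 CPM against 60.1, 86.3 and 52.8 (log2 0.77 ± 0.24, adjusted p = 0.192). Clu at 137 in both WT libraries and 97.4, 90.1 and 104 in V617F (adjusted p = 0.398) was lower in every V617F library without passing, as were Aldh1a1 and Cavin2 (adjusted p = 0.611 and 0.581).

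V617F library 2 of the CD41-positive fraction differed from the other 2 V617F libraries in several members at once. Cavin2 had 195 CPM in it against 294 and 304, and the megakaryocyte and platelet markers summed to 2191 CPM against 3782 and 3772. Sult1a1, Alcam and Nupr1 were each highest in it, and so was the sum of stem cell markers, at 3054 CPM against 2729 and 2716. This library is also the male one, and the part of sex or of cell content in these values was not tested.

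The CD41-positive calls rest on few libraries. Without WT library 3 or WT library 4 no member passed, the lone WT library then being assumed to vary like the other groups, and without V617F library 1 or 3 only Plscr2 did. The largest adjusted p over the alternatives was 0.0711 for Plscr2, 0.146 for Runx1t1, 0.200 for Sult1a1, 0.283 for Jam2 and 0.298 for Fhl1.

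Whether the genotype effect differed between the CD41 fractions was tested directly, as CD41-positive minus CD41-negative. This test and the comparison of fractions below treat V617F libraries of equal number as independent. They may be pairs from the same mice, as given under the processing. No member passed, and none of the 14467 genes did (0%), while 3 members and 1274 genes had an unadjusted p under 0.05; DESeq2 called 0 members and 6 genes, and limma-voom 0 and 0. The members with an unadjusted p under 0.05 were Cavin2 at 1.02 ± 0.36 on the log2 scale, Alcam at -0.86 ± 0.34 and Sult1a1 at -1.36 ± 0.60 (each adjusted p = 0.566). Sult1a1 therefore passed in one fraction and not in the other without a difference that passed between them. For Plscr2 the difference was -0.06 ± 0.27, and for Runx1t1 0.32 ± 0.40.

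CD41-positive HSC had much more Clu and Cavin2 than CD41-negative HSC in both genotypes, and less Alcam. Clu was 8.84-fold higher in WT and 9.39-fold in V617F, and Cavin2 7.09-fold and 14.4-fold higher. In WT 6 of 10 members passed, 5 higher and 1 lower, where 34% of the genes tested passed, 15.7% higher and 18.2% lower. In V617F 7 of 10 passed, 5 higher and 2 lower, where 34.3% passed, 16.4% higher and 17.9% lower. The median log2 fold change of the members was 0.46 in WT and 0.49 in V617F, against -0.04 and -0.02 over all genes tested. Groups that did not overlap were found for 7 members in each genotype, 5 higher and 2 lower. Over all genes tested such groups made up 56.8% in WT, 27.4% higher and 29.3% lower, and 56.1% in V617F, 28.4% higher and 27.7% lower.

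Clu rose from 15.5 ± 2.98 to 137 ± 0.374 CPM in WT (SD, n = 3 and 2; log2 3.14 ± 0.22, adjusted p = 2.23e-05) and from 10.4 ± 3.35 to 97 ± 6.75 in V617F (n = 3 each; log2 3.23 ± 0.21, adjusted p = 4.14e-06). Alcam went the other way, with log2 fold changes of -0.97 ± 0.26 in WT (adjusted p = 0.0146) and -1.83 ± 0.24 in V617F (adjusted p = 1.24e-04). Jam2 rose in WT only just past the threshold (log2 0.60 ± 0.21, adjusted p = 0.0442), a call kept in 8 of 22 alternatives, and did not pass in V617F (0.14 ± 0.19). Plscr2 did not pass in either genotype (0.31 ± 0.20 and 0.25 ± 0.18). Of the 11 endothelial and stromal markers tested, 5 were higher and 1 lower in CD41-positive HSC of WT, with a median log2 fold change of 0.77. In V617F 1 was higher and 2 lower, with a median of 0.30. The part of these markers in the Clu, Jam2 and Alcam values was not tested. Of 12 stem cell markers 2 were higher and 7 lower in CD41-positive HSC of WT, and 2 and 6 in V617F. Of 13 granulocyte markers 0 were higher and 7 lower in WT, and 0 and 2 in V617F. Of 13 erythroid markers 1 was higher and 3 lower in WT, and 3 and 2 in V617F. Their part in the members' differences was not tested either.

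Cavin2 rose from 51.0 ± 19.1 to 362 ± 42.2 CPM in WT (log2 2.83 ± 0.26, adjusted p = 3.6e-05) and from 18.4 ± 2.27 to 264 ± 60.0 in V617F (log2 3.85 ± 0.26, adjusted p = 4.14e-06). Of the megakaryocyte and platelet markers, which include Itga2b, the CD41 gene used for the sort, 11 of 13 tested were higher in CD41-positive HSC of each genotype. They summed there to 3617 to 3853 CPM in WT and 2191 to 3782 in V617F, and their part in the Cavin2 difference was not tested. Fhl1 rose in both genotypes, with log2 fold changes of 0.98 ± 0.17 (adjusted p = 0.00128) and 1.17 ± 0.15 (adjusted p = 1.32e-04).

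Aldh1a1 rose to 268 ± 8.31 CPM in WT (log2 0.61 ± 0.16, adjusted p = 0.0127) and to 224 ± 16.9 in V617F (0.74 ± 0.14, adjusted p = 0.0019). Nupr1 passed in V617F (0.90 ± 0.21, adjusted p = 0.00593) and not in WT (0.32 ± 0.24, adjusted p = 0.307). Sult1a1 fell by 1.47 on the log2 scale in V617F (adjusted p = 0.0167) and stood at -0.11 ± 0.44 in WT. Runx1t1 lay lower in CD41-positive HSC of both genotypes without passing, at -0.79 ± 0.29 (adjusted p = 0.0509) and -0.46 ± 0.27, although in WT it passed in 11 of 22 alternatives.

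Clu, Fhl1 and Cavin2 passed in both genotypes in 22 of 22 alternatives each. Without WT CD41-positive library 3 or library 4, 3 members passed in WT. The Sult1a1 call in V617F was lost without V617F CD41-negative library 2 or CD41-positive library 1 or 3 (largest adjusted p = 0.0734).

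**Figure D3:**
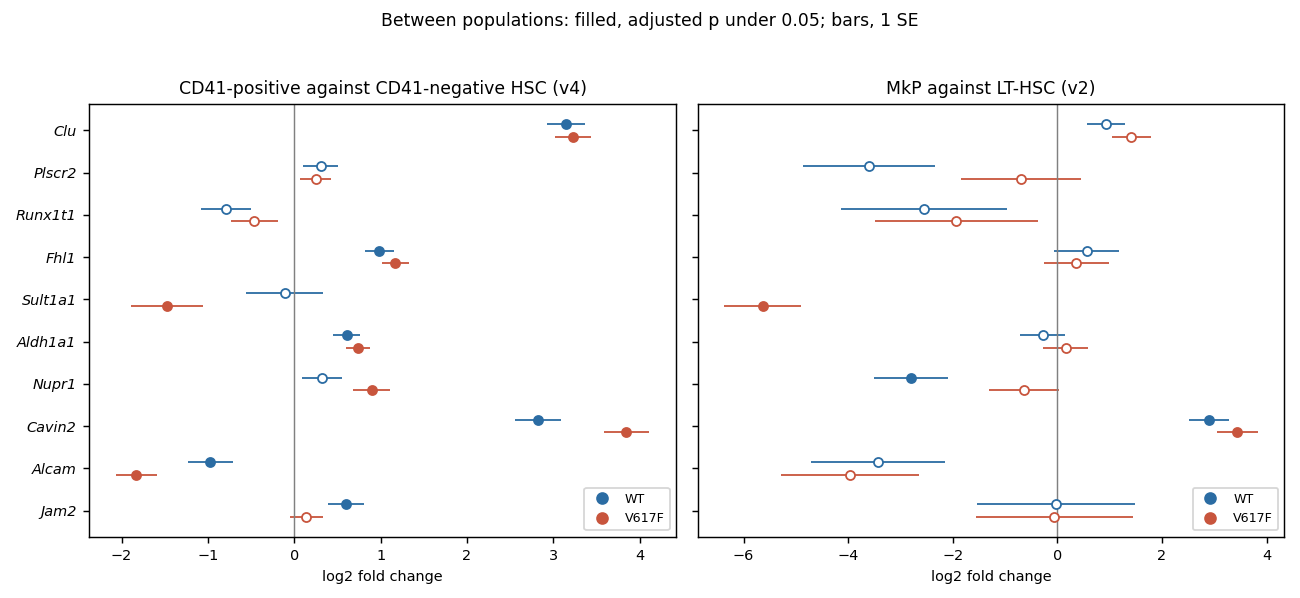
Log2 fold change between populations of the same genotype on the horizontal axis, CD41-positive over CD41-negative HSC (left) and MkP over LT-HSC (right), as points with SE bars; filled points passed an adjusted p of 0.05. Sult1a1 in WT MkP over LT-HSC is not drawn because WT MkP has no counts. On the left Clu stands at 3.14 and 3.23 and Cavin2 at 2.83 and 3.85, and Alcam is below 0 in all 4 comparisons.

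In LT-HSC no member passed between genotypes, where 0.063% of the 14281 genes tested passed, 0.028% higher and 0.035% lower. None of the 10 members had an unadjusted p under 0.05, while 1762 of the 14281 genes did. DESeq2 and limma-voom called 0 members as well. The log2 fold change was negative for 6 of 10 members with a median of -0.09, against -0.05 over all genes. The WT libraries disagreed with each other in this group. Plscr2, the gene that was higher in both V617F CD41 fractions, had 102, 18.2 and 88.7 CPM in WT libraries 30, 31 and 32 and 95.1, 59.9 and 74.7 in V617F libraries 6, 7 and 8. Runx1t1 had 2.16, 11.4 and 2.71 CPM in WT and 3.23, 7.53 and 5.08 in V617F. Fhl1 had 10.2, 69.4 and 48.2 CPM against 26.7, 21.1 and 22.1. In all 3 the V617F values fell inside the WT range.

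The SE of these log2 fold changes was 1.13 for Plscr2, 1.5 for Runx1t1 and 0.62 for Fhl1, against 0.18, 0.26 and 0.15 in CD41-negative HSC. Changes of the size seen there could therefore not be told from 0 in LT-HSC for Plscr2, Runx1t1 or Fhl1. Sult1a1 had 296, 65.2 and 201 CPM in WT and 81.1, 129 and 102 in V617F. Nupr1 had 366, 32.2 and 96.2 CPM in WT and 95.5, 91.6 and 59.5 in V617F. WT library 30, which stood apart in its marker sums, was the highest in both, and without it the log2 fold change of Nupr1 turned from -1.003 to 0.36. Aldh1a1 was the one member with groups that did not overlap, where 19.2% of genes tested had such groups, 13.6% higher and 5.63% lower. It was at 127, 36.9 and 117 CPM in WT and 178, 141 and 169 in V617F (log2 0.80 ± 0.43, adjusted p = 0.502).

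In MkP 1 of 10 members passed between genotypes, Sult1a1, which was higher in V617F, where 1.75% of genes tested passed, 1.62% higher and 0.126% lower. Sult1a1 had no counts in the WT libraries and 0.945, 1.55 and 3.75 CPM in V617F libraries 1, 2 and 3 (adjusted p = 0.00787). The mean of 2.08 ± 1.48 CPM was at least 25.2-fold higher than the floor of 3 counts per WT library, 0.0828 CPM, a bound that covers counting error only. Slx1b, which lies inside the same gene model, had 8.65 to 15.7 CPM in WT MkP. WT MkP libraries had fewer genes with counts and more granulocyte RNA than V617F MkP, as given above, and their part in this result was not tested.

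The median log2 fold change in MkP was 0.56 against 0.08 over all genes, the same with Sult1a1 set to its bound, and 5 members had groups that did not overlap, all higher in V617F, where 31% of genes tested had such groups, 21% higher and 9.99% lower. Plscr2 had 0, 12.7 and 4.47 CPM in WT libraries 30, 31 and 32 and 41.8, 47.1 and 52.8 in V617F, a fold change of 3.04 ± 1.23 on the log2 scale that did not pass (adjusted p = 0.239). Aldh1a1 had 111, 48.3 and 71.2 CPM against 173, 188 and 182 (log2 1.24 ± 0.44, adjusted p = 0.169). Clu and Nupr1 were likewise higher in every V617F library without passing (adjusted p = 0.585 and 0.478). Fhl1 had 64.2, 96.4 and 27.6 CPM in WT and 32.4, 32 and 25.4 in V617F, with overlapping groups (log2 -1.07 ± 0.62, adjusted p = 0.486).

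Between MkP and LT-HSC, Cavin2 was higher and Sult1a1 lower in MkP of both genotypes. In WT 3 of 10 members passed, 1 higher and 2 lower, where 8.9% of genes tested passed, 2.32% higher and 6.58% lower. In V617F 2 of 10 passed, 1 in each direction, where 1.09% passed, 0.378% higher and 0.714% lower. Median log2 fold changes were -1.41 in WT and -0.35 in V617F, against -0.20 and -0.06 over all genes. Groups did not overlap for 5 members in WT, 2 higher and 3 lower, where 20.5% of genes tested had such groups, 8.39% higher and 12.1% lower. In V617F they did not overlap for 7, 2 higher and 5 lower, where 41.4% had such groups, 17% higher and 24.5% lower. Cavin2 had 46.5, 43.3 and 81.1 CPM in WT LT-HSC and 328, 572 and 379.8 in WT MkP (log2 2.90 ± 0.38, adjusted p = 9.88e-04). In V617F it had 49.4, 25.3 and 43.9 CPM in LT-HSC and 471, 393 and 425 in MkP (log2 3.44 ± 0.39, adjusted p = 0.00105).

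Megakaryocyte and platelet markers summed to 283 to 533 CPM in WT LT-HSC and 5189 to 5877 in WT MkP, and to 407 to 497 and 6757 to 8620.0 in V617F, with 7 of 13 tested higher in MkP of each genotype. Sult1a1 in WT LT-HSC, at 187 ± 116 CPM, was at least 2264-fold higher than the floor in WT MkP (adjusted p = 2e-04). That bound covers counting error only. In V617F Sult1a1 fell from 104 ± 24.0 to 2.08 ± 1.48 CPM, by 5.63 on the log2 scale (adjusted p = 0.00562). The V617F LT-HSC libraries were male and the V617F MkP libraries female, so for Sult1a1, Cavin2 and the other V617F values of this comparison sex and population cannot be told apart. The V617F call was lost without MkP library 1 or 2 (largest adjusted p = 0.0615), and the WT call held in 20 of 20 alternatives.

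Nupr1 passed in WT (log2 -2.80 ± 0.71, adjusted p = 0.0306), but its groups overlapped, at 25.3, 12.6 and 32.9 CPM in MkP, and the call was kept in 8 of 20 alternatives. It was lost without WT LT-HSC library 30, among others. Alcam was lower in every MkP than in every LT-HSC library of its genotype without passing, at 3.80 ± 3.32 against 41.0 ± 22.5 CPM in WT (adjusted p = 0.109) and 2.38 ± 0.714 against 37.1 ± 19.4 in V617F (adjusted p = 0.238). Clu was higher in every MkP library, also without passing (log2 0.93 ± 0.36 in WT and 1.42 ± 0.37 in V617F, adjusted p = 0.121 and 0.125). The Cavin2 call in WT was lost when only WT LT-HSC and WT MkP were fitted, with or without the replicate number as a block (largest adjusted p = 0.242), and was kept with the block when all 4 groups were fitted (adjusted p = 0.00199).

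A direct test of whether the genotype effect differed between MkP and LT-HSC passed for Sult1a1 among the 10 members (adjusted p = 0.0153), where 0.455% of genes tested passed, 0.427% higher and 0.028% lower. Because WT MkP had no Sult1a1 counts, the size of this difference depends on the prior count of the fit. Sex differed between genotypes in LT-HSC and not in MkP, so a part of sex in this difference cannot be told apart from the genotype.

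A further 2 lists of genes reported in ageing stem cells were read in the same fits, 30 genes that rise with age and 8 that fall. These too were chosen with earlier results of these data known. In CD41-negative HSC, 9 of the 30 risers were lower in V617F and 0 higher, where 7.94% of all genes tested were lower and 5.48% higher. The difference was negative for 20 of 30, with a median log2 fold change of -0.31 against -0.01 over all genes. In CD41-positive HSC 4 were lower and 0 higher, where 0.94% of all genes were lower and 0.221% higher, 27 of 30 had a negative difference, and the median was -0.62 against 0.03 over all genes. Selp, Vwf, Itgb3 and Mmrn1 of this list are also platelet genes. Of the 8 that fall with age, Flt3, a cytokine receptor of multipotent progenitors, was higher in V617F CD41-negative HSC (log2 0.72 ± 0.20, adjusted p = 0.0373), and none passed in CD41-positive HSC.

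Mllt3, a chromatin reader known to support stem cell maintenance, fell from 246 ± 31.5 to 140 ± 13.8 CPM in CD41-negative HSC (log2 -0.81 ± 0.12, adjusted p = 0.00391) and by 0.85 on the log2 scale in CD41-positive HSC (adjusted p = 0.00966). Ptprk, a receptor tyrosine phosphatase, fell from 8.12 ± 0.886 to 2.81 ± 0.245 CPM in CD41-positive HSC (log2 -1.53 ± 0.20, adjusted p = 0.00203). Ramp2, which modifies receptors of the calcitonin family, fell from 4.64 ± 0.284 to 0.425 ± 0.243 CPM there (adjusted p = 0.0056). Osmr, a subunit of the oncostatin M receptor, was at 0.219 to 1.01 CPM in WT CD41-negative HSC and had no counts in V617F (adjusted p = 0.0166). Vwf, the platelet adhesion protein von Willebrand factor, fell from 150 ± 39.6 to 81.9 ± 10.5 CPM in CD41-negative HSC (log2 -0.87 ± 0.19, adjusted p = 0.0201).

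**Figure D4:**
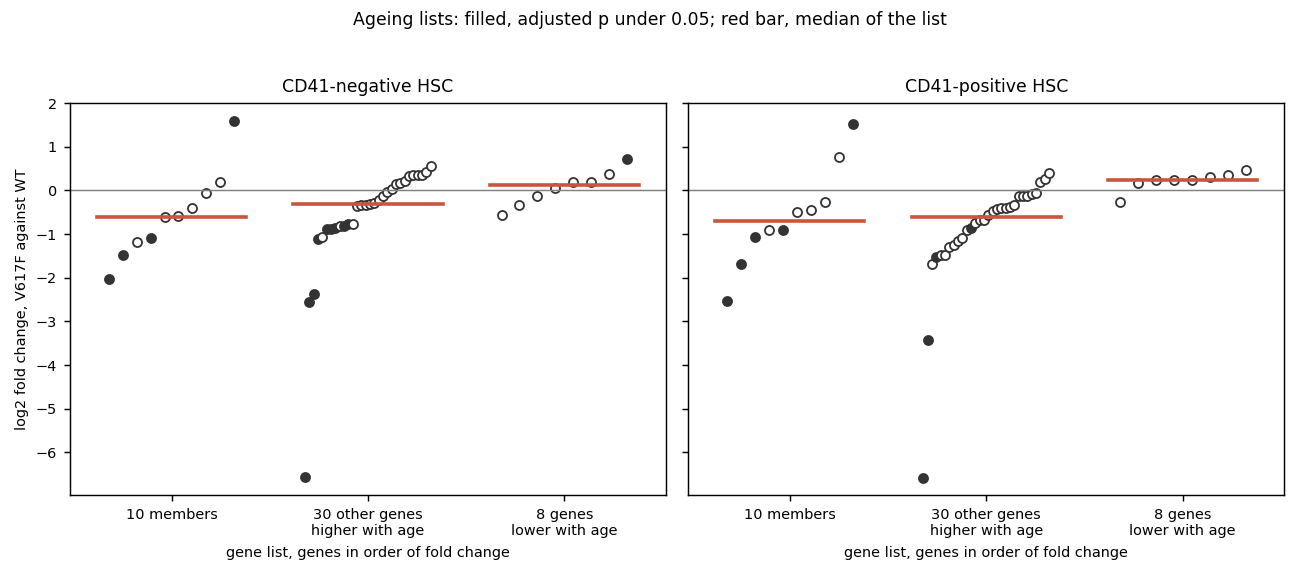
Log2 fold change, V617F over WT, on the vertical axis of each gene of 3 ageing lists (the 10 members, 30 other genes that rise with age, 8 that fall), set side by side on the horizontal axis in order of fold change, in CD41-negative (left) and CD41-positive HSC (right); each point is 1 gene, filled where it passed an adjusted p of 0.05, and red bars are list medians. In both fractions most genes that rise with age lie below 0; Osmr, near -6.6, has V617F libraries at or near 0 counts.

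No riser of the longer list passed between genotypes in LT-HSC, where 29 were tested. In MkP 3 of 29 passed, all higher in V617F, where 1.62% of all genes tested were higher, and the list's median log2 fold change was 0.10 against 0.08 over all genes. They were Procr, the endothelial protein C receptor used as a stem cell marker, Neo1, a netrin receptor, and Dsg2, a desmosomal cadherin. Neo1 and Dsg2 had no counts in WT MkP and 1.58 ± 0.426 and 2.15 ± 0.821 CPM in V617F. Procr reached 0.651 ± 0.179 CPM in V617F MkP, against 90.6 ± 14.1 in V617F LT-HSC.

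Between the CD41 fractions, 9 risers were higher and 4 lower in CD41-positive HSC of WT mice, where 15.7% of all genes were higher and 18.2% lower, and 8 and 6 in V617F, where 16.4% were higher and 17.9% lower. Vwf rose by 1.71 ± 0.21 in WT and 2.25 ± 0.20 in V617F on the log2 scale (adjusted p = 1.83e-04 and 1.1e-05). Procr was lower in CD41-positive HSC, at 45.7 ± 11.5 against 144 ± 15.3 CPM in WT (log2 -1.65 ± 0.38, adjusted p = 0.00676) and it fell by 2.45 on the log2 scale in V617F (adjusted p = 1.92e-04). Itgb3, the partner chain of CD41 in the platelet integrin, was higher in both (adjusted p = 6.64e-05 and 1.94e-05), and Mllt3 was lower (adjusted p = 0.00578 and 0.00129). Of the 8 genes that fall with age, Nkg7 and Ezh2 were higher in CD41-positive HSC of both genotypes and 4 were lower, Flt3, Rassf4 and Satb1 in both with Haao in WT and Dnmt3b in V617F.

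Profiles of the members over libraries were compared with those of all genes of at least 5 CPM in both sets, as the lower of the 2 Pearson correlations of log2(CPM + 1) over 11 v4 and 12 v2 libraries. These values are descriptions, since libraries share depth, protocol and group structure. Clu was most like Rgs10 (0.966) and Spc24 (0.910). Cavin2 was most like the platelet genes Plek (0.965) and Pf4 (0.961). Sult1a1 was most like Mapk12 (0.911) and Jam3 (0.909). The nearest gene reached 0.861 for Plscr2 (Ctla2a), 0.817 for Aldh1a1 (Ppp2r2d), 0.816 for Nupr1 (Sdhaf2), 0.805 for Fhl1 (Dgkg) and 0.755 for Jam2 (Rcor1), and Runx1t1 was too low for this comparison. Among the members themselves Clu and Cavin2 followed each other, with r of 0.98 over the v4 and 0.76 over the v2 libraries. Clu and Alcam ran opposite in both sets, at -0.81 and -0.86. Plscr2 and Runx1t1 ran opposite over the v4 libraries (-0.91) but not over the v2 libraries (0.43).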

How the data were processed

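Per the labels, polyA RNA of sorted mouse marrow cells was made into libraries with SMART-Seq v2 or v4 and Nextera XT. Per the submitters' processing notes, reads were aligned to mm10 with STAR 2.5.2a, and R 3.4.2 and limma were used; what counted the reads, with which annotation and whether by strand, is not given in the sources used here. Counts were deposited by the authors as whole numbers, 1 row per Entrez identifier, beside gene lengths, for 24454 genes, 11 of them without a symbol, in 23 libraries. The members and lists were chosen with earlier results of these data known.

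The v4 and the v2 counts were each fitted with edgeR 4.0.16 in R 4.3.3: TMM scaling, the filterByExpr filter on groups, 1 mean per group over the 4 groups, and the quasi-likelihood F test, with Benjamini-Hochberg adjustment over the genes tested in each of 10 contrasts (14467 genes for v4, 14281 for v2) and a threshold of 0.05. The script was tested on simulated data. Levels are CPM of the TMM-scaled total; RPKM divide by the deposited gene length. Floors of 3 counts cover counting error only. No libraries were identical, and none was left out.

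Alternatives were DESeq2 1.42.0, limma-voom (limma 3.58.1), no filter on low counts, at least 5 CPM in 3 libraries, scaling by RLE, only the groups compared, each library omitted in turn, the replicate number as a block, and for v4 sex as a covariate, omission of the male libraries and omission of WT CD41-negative libraries 1 and 3. The replicate block of the v4 set joins libraries of equal number across genotypes, which are different mice, so it is no pairing for the genotype comparisons. A block within genotype, and a block within WT for MkP against LT-HSC, were chosen after seeing the data. Residual profiles of V617F CD41-negative and CD41-positive libraries of equal number correlated across genes at 0.431, 0.551 and 0.41. The data thus point to pairs, which the labels do not state. The reported fit has no block and treats these libraries as independent, and only the alternatives with a block use the pairs. Every member was named, with up to 5 passing genes of the smallest adjusted p from the other ageing lists, and the 2 genes most like each member; for Alcam these are not reported here.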

Additional observations from a re-analysis of the deposited data

Results flagged for a closer look

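The effect of V617F on Sult1a1 differed between MkP and LT-HSC by 9.87 on the fitted log2 scale (adjusted p = 0.0153 by edgeR's quasi-likelihood test), the one member for which the direct test of such a difference passed. The size is no bound, since Sult1a1 had no counts in WT MkP and the fitted value depends on the prior count. The levels were 0.945 to 3.75 CPM in V617F MkP, 65.2 to 296 in WT LT-HSC and 81.1 to 129 in V617F LT-HSC, so the difference rests on a change from 0 to a few CPM. V617F LT-HSC libraries were male and those of the other 3 groups female, so sex cannot be told apart from the genotype effect in LT-HSC that enters this difference. The call was lost with limma-voom, without any 1 of the V617F LT-HSC libraries, and without V617F MkP library 2, with a largest adjusted p of 0.0979.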

How the results depend on the processing

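Calls of members between genotypes in CD41-negative HSC numbered 4 and became 7 with DESeq2; leaving out each library gave 4 to 5. In CD41-positive HSC 5 calls became 0 to 5 when each library was left out, between CD41 fractions 6 became 3 to 8 in WT, and 7 became 6 to 8 in V617F. For MkP against LT-HSC, 3 calls in WT became 5 with DESeq2, 1 with only the groups compared and 1 with the replicate block (2 to 4 with a library left out); that block was fitted on the 2 WT groups alone, which changes 2 choices at once, and a block within WT with all 4 groups fitted, chosen after seeing the data, gave 3, and 2 in V617F became 4 with DESeq2 and 5 with only the groups compared (1 to 3). The difference of effects between MkP and LT-HSC went from 1 to 0 with limma-voom (0 to 1). The difference between CD41 fractions and the LT-HSC comparison stayed at 0 members and V617F against WT MkP at 1 throughout. With the replicate block, members called were 5 in CD41-negative HSC, 4 in CD41-positive HSC (Fhl1 and Jam2 lost, Alcam gained), 6 and 7 between fractions in WT (Jam2 lost, Runx1t1 gained) and V617F and 0 for their difference; the block within genotype left the same 7 members called in V617F. Residual profiles of WT libraries of equal number correlated at r from -0.0381 to 0.0744. Such values cannot tell whether these libraries came from the same mice, and the reported fit treats them as independent. Genes called over the whole table moved too, and the ranges given here leave aside fits with 1 library in a group. In CD41-negative HSC they moved from 1941 to between 269 and 6021, and in CD41-positive HSC from 168 to between 54 and 520. Between fractions they moved from 4917 to between 2028 and 7082 in WT. In LT-HSC they moved from 9 to between 0 and 488 and in MkP from 250 to between 46 and 1137. They moved for MkP against LT-HSC from 1271 to between 6 and 2803 in WT and from 156 to between 31 and 2972 in V617F, and for the differences of effects from 0 to at most 1766 (CD41 fractions) and from 65 to between 0 and 523.

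Of 100 log2 values of members, 21 changed sign in some alternative, none of them past the threshold in the reported fit. V617F against WT in CD41-negative HSC gave -0.169 to 0.0688 for Alcam with a library left out, and for Nupr1 -0.0691 with the replicate block and -0.00602 with sex as a covariate. In LT-HSC, Clu was -0.0369 with DESeq2 and -0.0371 with RLE (-0.31 to 0.28 with a library left out), Runx1t1 0.29 with limma-voom (-0.39 to 1.12), Plscr2 -0.31 to 0.52, Nupr1 -1.49 to 0.36, Alcam -0.64 to 0.18 and Jam2 -0.0412 to 0.752. In MkP, Cavin2 was -0.0387 with DESeq2, -0.0387 with RLE and -0.0315 with the 5 CPM filter (-0.0962 to 0.314), Alcam 1.49 with limma-voom, and Jam2 -0.37 to 4.47. CD41-positive against CD41-negative in WT gave -0.290 to 0.0589 for Sult1a1, and -0.0792 for Plscr2 without WT CD41-negative libraries 1 and 3. MkP against LT-HSC gave for Jam2 0.0284 with the 5 CPM filter (-4.29 to 0.54) in WT and -0.25 to 0.20 in V617F. The difference between CD41 fractions was 0.0832 with the block within genotype and 0.33 without WT CD41-negative libraries 1 and 3 for Plscr2 (-0.30 to 0.10), and -0.0790 to 0.378 for Clu. The difference between MkP and LT-HSC was 1.65 with limma-voom for Alcam (-1.07 to 0.0153), 3.66 with limma-voom for Jam2 (-0.57 to 4.27), -0.74 to 0.27 for Fhl1 and -0.54 to 4.74 for Runx1t1. The cause of these shifts was not tested.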
